A study of Homo sapiens with 9 samples.

Results

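Clone 7 and clone 1 of the human lung cancer line PC9 were compared in 3 matched pairs of RNA-seq libraries, taken by day and cell cycle phase as the labels give them: day 0 G1, day 0 S and day 28 G1. These pairs hold 6 of the 9 libraries in the series, 3 of clone 7 and 3 of clone 1, and the other 3 libraries (day 0 G2, day 28 S and day 28 G2) are of clone 1 and have no partner. PC9 is a non-small cell lung cancer line whose growth is driven by a mutated EGFR, the receptor kinase that osimertinib blocks. The day 28 libraries came from cells kept in 500 nM osimertinib for 28 days, and the day 0 libraries from untreated cells. All cells of both clones carried the FUCCI4 reporter, which includes fluorescent fusions of CDT1 and geminin (GMNN). They were fixed with glyoxal, permeabilised with saponin and sorted on DNA content and on both reporter colours before poly(A) RNA was sequenced. Each clone is a single subclone, so a difference between them is a difference between 2 isolates. No label says that libraries of 1 clone came from separate cultures, and no pair was repeated. The p-values below measure how the clone difference varied among pairs of unlike day or phase. They do not measure the spread between repeated cultures or libraries.

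Cell lines drift as they are grown, and a subclone fixes the state of the cell it came from. Differences between subclones can lie in single genes that are switched on or off, in the copy number of chromosome arms, which moves many neighbouring genes by a similar modest amount, or in how the cells respond to a drug. DNA was not measured here.

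The clone 7 libraries held 8.83, 30.3 and 33.5 M reads (M, mega) (day 0 G1, day 0 S and day 28 G1), against 108.7, 47.3 and 30.5 M in the matching clone 1 libraries. Mitochondrially encoded mRNAs took 10.7%, 9.14% and 8.61% of the reads in clone 7 and 6.07%, 6.34% and 19.6% in clone 1. Levels are given as reads per M reads (CPM), and differences as log2 of clone 7 over clone 1 after adding 0.5 CPM. EPCAM, an epithelial marker, lay between 287 and 803 CPM in the 6 libraries, and the epithelial markers summed to between 11990.1 and 29591 CPM. Of the lung lineage markers, SFTPB was near 0 in both clones (at most 0.0661 CPM). NKX2-1 stood at 0.340, 0.463 and 6.45 CPM in clone 7 (day 0 G1, day 0 S and day 28 G1), against 0.948, 0.614 and 8.49 CPM in clone 1. NAPSA stood at 0.227, 0.727 and 12.6 CPM in clone 7, against 1.20, 0.931 and 14.5 CPM in clone 1. Both were low at day 0 and higher at day 28 in both clones. Leukocyte markers summed to at most 12.8 CPM, fibroblast markers to at most 46.8, endothelial markers to at most 11.3 and red cell markers to at most 0.0423.

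A small set of genes differed between the clones at every pairing, on both days. Over the 3 pairs 11 of 13160 tested genes were higher in clone 7 (0.0836%) and 6 were lower (0.0456%), by limma with the pair as a block and a Benjamini-Hochberg adjusted p under 0.05. The test had 2 residual degrees of freedom, and 2390 genes had an unadjusted p under 0.05. The same test without the day 28 pair called 1044 genes higher and 1940 lower. Of the genes called over the 3 pairs, the 16 with a symbol and a mean of at least 5 CPM are described here. At least 2-fold higher in clone 7 in each of the 3 pairs were 71 genes (0.54%), and at least 2-fold lower were 68 (0.517%).

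The largest difference was in CYBA, which encodes p22phox, the membrane subunit shared by several NADPH oxidases. It stood at 141, 117 and 224 CPM in clone 7, against 1.03, 1.06 and 3.48 CPM in clone 1 (day 0 G1, day 0 S and day 28 G1). Every clone 7 library was far above every clone 1 library, and the 3 unpaired clone 1 libraries held 0.521 to 2.77 CPM. The log2 difference was 6.20 ± 0.23 (SE, adjusted p = 0.00033). The coding span lies on the minus strand of chromosome 16, from 88643306 to 88651013 (GRCh38). Its tested neighbours did not pass the test over the 3 pairs. The cholesterol synthesis gene MVD, which lies next to it, stood at -0.05 (adjusted p = 0.961). That value averages -0.97, -0.43 and 1.26 in the 3 pairs, so MVD was not unchanged. SNAI3 stood at -0.56 (adjusted p = 0.479).

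RNF212, a meiotic recombination factor, was the gene with the largest difference in the other direction. It held 0.793, 0.826 and 1.07 CPM in clone 7, which are 7, 25 and 36 reads, against 13.8, 17.9 and 29.3 CPM in clone 1. Its log2 difference was -3.84 ± 0.28 (adjusted p = 0.00886). The unpaired clone 1 libraries held 13.6 to 25.4 CPM and so lay with the matched ones. CEACAM6, a surface adhesion protein of epithelial tumours, was lower at day 28 than at day 0 in both clones, and within each pair clone 7 was higher. It stood at 22.6, 39.96 and 3.76 CPM in clone 7, against 2.29, 2.14 and 0.0983 CPM in clone 1, the last of these from 3 reads. Its log2 difference was 3.27 ± 0.31 (adjusted p = 0.0205).

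The 250 bases upstream of the annotated start of these 3 genes are shown because each gene was low in one clone and well above it in the other; CG dinucleotides, the sites of DNA methylation, are in capitals. The sequences are RefSeq's (GRCh38.p14), for CYBA chr16:88651054-88651303 (minus strand), RNF212 chr4:1113565-1113814 (minus strand) and CEACAM6 chr19:41755280-41755529 (plus strand).
CYBA: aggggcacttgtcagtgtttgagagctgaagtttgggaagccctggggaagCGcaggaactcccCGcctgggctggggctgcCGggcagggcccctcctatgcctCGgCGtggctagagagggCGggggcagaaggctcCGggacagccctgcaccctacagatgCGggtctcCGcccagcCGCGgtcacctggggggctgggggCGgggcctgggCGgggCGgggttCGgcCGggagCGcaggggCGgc
RNF212: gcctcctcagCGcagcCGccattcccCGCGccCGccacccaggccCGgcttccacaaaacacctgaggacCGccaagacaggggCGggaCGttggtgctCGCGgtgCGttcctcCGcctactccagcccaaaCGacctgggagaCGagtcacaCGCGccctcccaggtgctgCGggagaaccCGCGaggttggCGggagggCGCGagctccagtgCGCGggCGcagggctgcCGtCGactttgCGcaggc
CEACAM6: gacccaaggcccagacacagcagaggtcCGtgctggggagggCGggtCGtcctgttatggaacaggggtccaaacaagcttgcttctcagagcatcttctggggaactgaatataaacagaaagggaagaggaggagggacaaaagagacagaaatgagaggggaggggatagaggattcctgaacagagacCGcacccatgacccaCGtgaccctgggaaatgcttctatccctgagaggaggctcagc
The motif searched was CG, which reads the same on both strands. CYBA had 18 such sites, RNF212 29 and CEACAM6 5, against a median of 11 over 35114 promoters of the same length, of which 93.9% held at least 1. At least as many as in CYBA, RNF212 and CEACAM6 were found in 36.8%, 14.1% and 65.7% of promoters. Methylation was not measured in these cells.

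**Figure D1:**
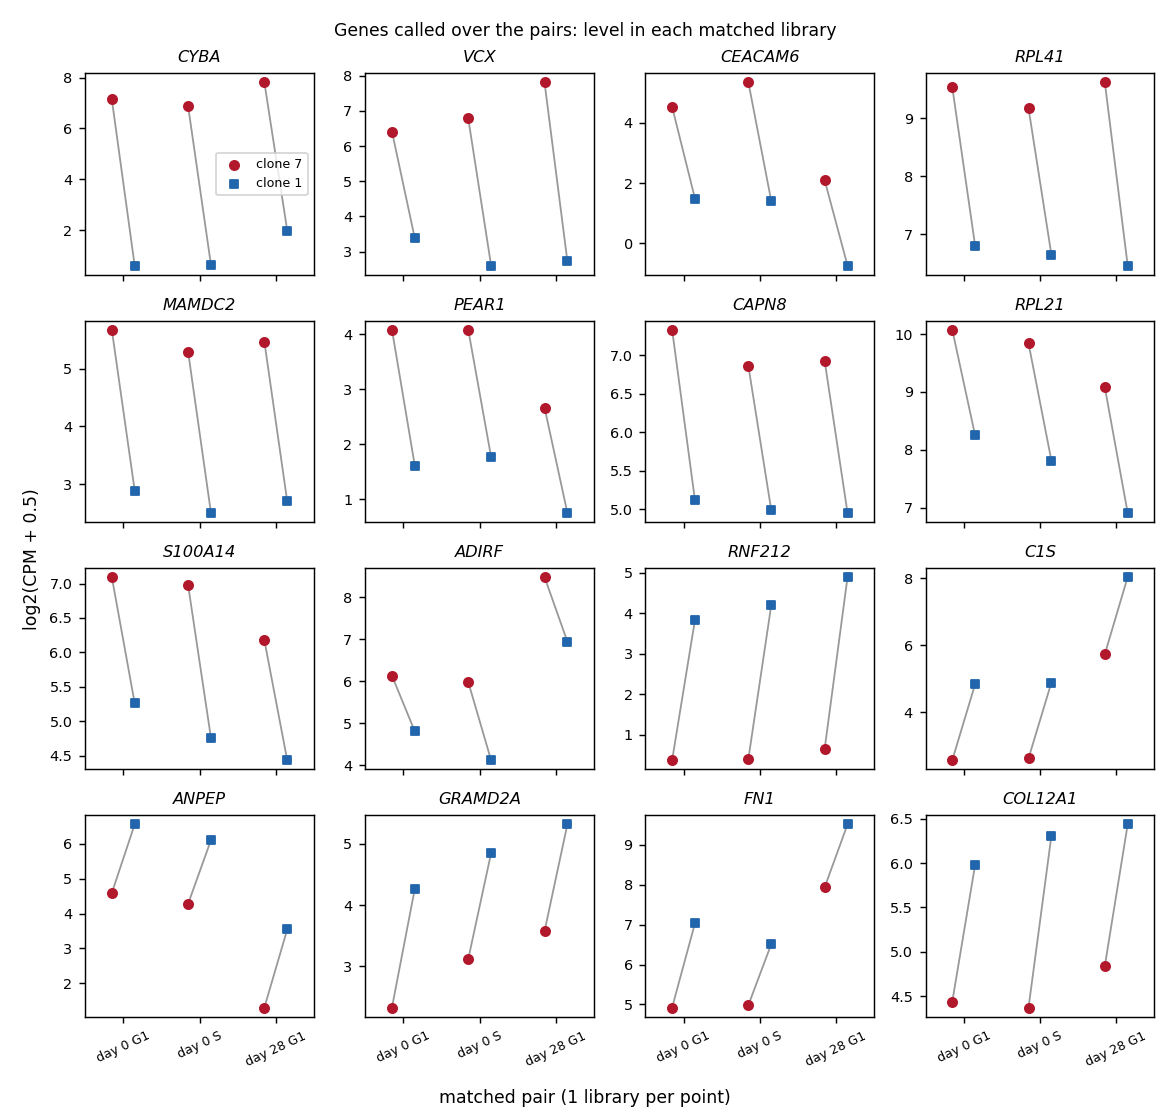
Level of the 16 named genes called over the 3 pairs, as log2(CPM + 0.5), with 1 point per library, clone 7 as red circles left of clone 1 as blue squares, and a line joining each pair. In 10 genes clone 7 lies above clone 1 in every pair, and in 6 it lies below. CEACAM6, C1S, FN1 and ADIRF shift with day 28 in both clones while the gap stays.

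Other genes that were higher in clone 7 were MAMDC2, CAPN8, S100A14, PEAR1 and ADIRF. MAMDC2, a secreted proteoglycan, stood at 50.7, 38.8 and 43.8 CPM in clone 7, against 6.91, 5.16 and 5.999 CPM in clone 1 (log2 difference 2.78 ± 0.20, adjusted p = 0.00886). The groups did not overlap, and the levels at day 28 lay within the range of day 0 in both clones. CAPN8, a calpain protease of the gastric epithelium, stood at 160.2, 115 and 121 CPM in clone 7, against 34.2, 31.2 and 30.5 CPM in clone 1 (2.02 ± 0.18, adjusted p = 0.0147). S100A14, a calcium-binding protein of epithelia, stood at 136, 126 and 71.9 CPM in clone 7, against 37.9, 26.6 and 21.1 CPM in clone 1 (1.93 ± 0.19, adjusted p = 0.0206). PEAR1, an adhesion receptor named for platelets, was at 16.4, 16.4 and 5.85 CPM in clone 7 and 2.54, 2.90 and 1.18 CPM in clone 1 (2.24 ± 0.27). ADIRF, an adipogenesis regulator, was at 69.7, 62.8 and 359 CPM in clone 7 and 27.5, 16.9 and 123 CPM in clone 1 (1.58 ± 0.19). The calls of PEAR1 and ADIRF were marginal, with an adjusted p of 0.04999. They passed in 4 and 8 of 16 other settings that kept the 3 pairs, and ADIRF did not pass without the day 0 S pair (adjusted p = 0.0686).

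Besides RNF212, the genes lower in clone 7 were C1S, FN1, COL12A1, ANPEP and GRAMD2A. C1S, a protease of the classical complement pathway, stood at 5.44, 5.69 and 52.7 CPM in clone 7, against 28.2, 29.1 and 261 CPM in clone 1 (-2.28 ± 0.19, adjusted p = 0.0126). It was higher at day 28 than at day 0 in both clones, and within each pair clone 7 was lower. Its partner protease C1R, the neighbouring gene on chromosome 12, stood at -1.60 without passing the test (adjusted p = 0.076). FN1, fibronectin, held 29.8, 31.1 and 244 CPM in clone 7, against 131, 90.7 and 730.4 CPM in clone 1 (-1.74 ± 0.19, adjusted p = 0.0388). COL12A1, a collagen that binds to fibrils, held 21.2, 20.2 and 28.2 CPM in clone 7, against 62.7, 78.8 and 86.1 CPM in clone 1 (-1.69 ± 0.19, adjusted p = 0.0388). The aminopeptidase ANPEP (CD13) held 23.6, 18.9 and 1.97 CPM in clone 7, against 93.9, 68.5 and 11.2 CPM in clone 1 (-2.01 ± 0.21, adjusted p = 0.0275). GRAMD2A, a protein of membrane contact sites, held 4.53, 8.20 and 11.4 CPM in clone 7, against 18.8, 28.3 and 39.3 CPM in clone 1 (-1.80 ± 0.21, adjusted p = 0.04999), a call that held in 7 of 16 other settings, against 10 for ANPEP, 11 for COL12A1 and 13 for FN1. ANPEP and GRAMD2A lie on chromosome 15, whose genes were lower as a whole in clone 7. With the median of each chromosome removed in each pair their log2 differences were -1.54 and -1.33 (adjusted p = 0.074 and 0.0772). That of PEAR1, on the long arm of chromosome 1, was then 2.14, close to its 2.24 before, with an adjusted p of 0.0606. CAPN8 and S100A14 lie on that arm too, and COL12A1 in the chromosome 6 run given further on. The test did not use the unpaired clone 1 libraries. Of the 17 called genes, 15, 15 and 16 lay on clone 1's side in them (day 0 G2, day 28 S, day 28 G2). These genes were chosen for a gap between the clones, and the same count was not made over all tested genes. How far these counts exceed those of other genes was therefore not tested, and they are given as a description only.

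Further genes were at least 2-fold apart in every pair without passing the test. Those named here were picked after their values were seen and get no test. The laminin chain LAMB3 (log2 difference 1.54, adjusted p = 0.0809), of epithelial basement membranes, was higher in clone 7 in each pair. So were the decoy and antagonist genes of interleukin-1 signalling IL1R2 (1.45, adjusted p = 0.0898) and IL1RN (1.41, adjusted p = 0.105), with the interleukin-33 receptor IL1RL1 (2.31, adjusted p = 0.0821). The placental and germ cell alkaline phosphatases ALPP (-2.53, adjusted p = 0.0898) and ALPG (-1.57, adjusted p = 0.101) were lower in clone 7.

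The called genes also included 3 that share sequence with other genes: VCX, RPL41 and RPL21. VCX, a cancer-testis gene of the X chromosome, stood at 84.5, 109.7 and 223 CPM in clone 7, against 9.88, 5.59 and 6.13 CPM in clone 1 (4.10 ± 0.37, adjusted p = 0.0147). RPL41, a ribosomal protein, stood at 746, 577 and 788 CPM in clone 7, against 111, 99.6 and 87.4 CPM in clone 1 (2.81 ± 0.19, adjusted p = 0.00886). RPL21, another ribosomal protein, stood at 1079, 915 and 541 CPM in clone 7, against 303, 224 and 119.6 CPM in clone 1 (2.01 ± 0.18, adjusted p = 0.0147). Of their 75-base windows, 64.8%, 12.8% and 55.7% were found letter for letter in a transcript of another gene, so reads of the length used here cannot always be placed in one of them, and these 3 genes are uncertain.

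This held more widely. The 121 tested genes that share at least 50% of their windows with another gene had median log2 differences of 0.70, 0.64 and 0.61 in the 3 pairs (day 0 G1, day 0 S and day 28 G1). The 10827 genes that share none had medians of -0.14, -0.13 and -0.02, and the 377 genes sharing 10% to under 50% had 0.17, 0.17 and 0.24. Of the 121 genes 82 were above 0 in each pair, against 1656 of the 10827 that share none. At least 2-fold higher in clone 7 were 43, 36 and 35 of them, against 6.59%, 3.08% and 4.98% of all tested genes, and at least 2-fold lower were 1, 1 and 4, against 9.89%, 4.45% and 6.44% of all. Of the 71 genes that were 2-fold higher in every pair, 18 share at least 10% of their windows (27.3% of those with a value), against 3.88% of all tested genes and 5.97% of the 68 that were lower. How the authors' counting treated a read with several matching places is not given in the sources used here, and whether it differed between libraries was not tested. Many of the 121 genes lie in the first run of chromosome 16 or the chromosome 1 run, given further on. The first was higher in clone 7 in each pair and the second at day 0. The parts of position and of shared sequence in these medians were not separated.

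SMN1, which encodes the survival motor neuron protein, is an example with 89.8% of its windows shared. It held 16.8, 17.6 and 9.76 CPM in clone 7, against 4.86, 4.76 and 2.85 CPM in clone 1 (log2 difference 1.69, adjusted p = 0.076). The read-length window from its start codon is shown beside that of its copy SMN2, since the 2 are alike in every letter (GENCODE v29, GRCh38, plus strand, chr5:70925104-70925178 and chr5:70049686-70049760).
SMN1: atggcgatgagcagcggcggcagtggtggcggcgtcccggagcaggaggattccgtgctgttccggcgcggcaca
SMN2: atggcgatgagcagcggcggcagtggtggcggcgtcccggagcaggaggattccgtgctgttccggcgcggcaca
A read from this window cannot tell the copies apart. The translation initiation subunit gene EIF3C, with 95.9% shared, stood at 14.7, 18.8 and 14.8 CPM in clone 7 and 4.22, 6.52 and 3.64 CPM in clone 1 (1.68, adjusted p = 0.0779). NOTCH2NLA, a Notch regulator of the human lineage with 78.1% shared, stood at 3.51, 2.61 and 18.5 CPM in clone 7 and 0.433, 0.169 and 4.98 CPM in clone 1 (2.04, adjusted p = 0.076). EIF3C lies in the first run of chromosome 16 and NOTCH2NLA in the chromosome 1 run.

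**Figure D2:**
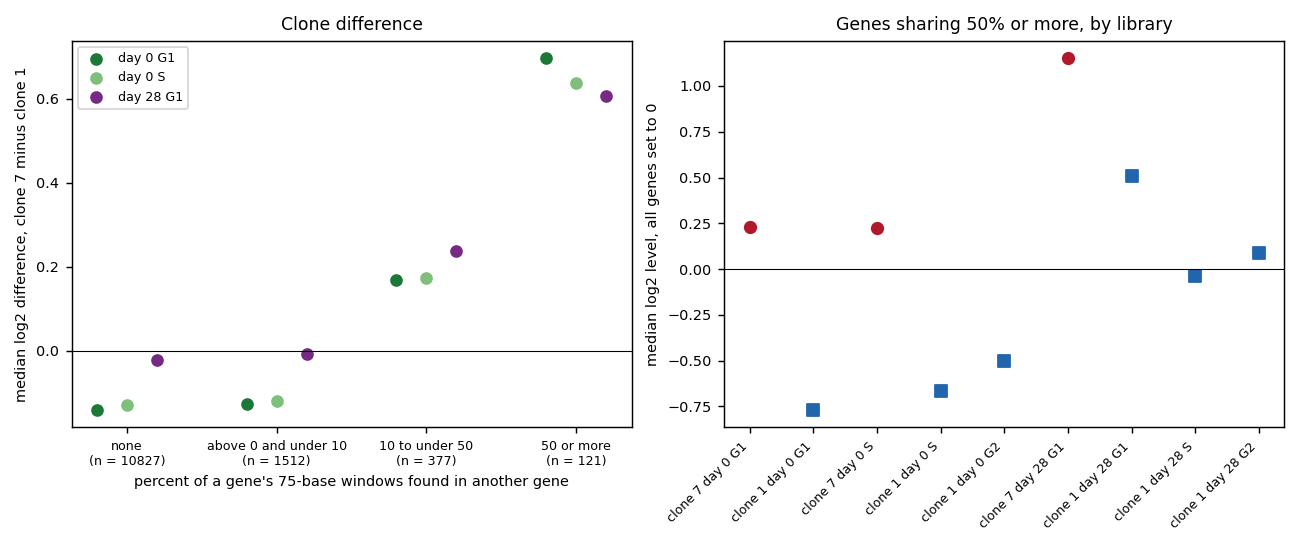
Left, median log2 difference of clone 7 minus clone 1 in each pair for genes grouped by the percent of their 75-base windows found in another gene; right, median log2 level of the 121 genes sharing 50% or more in each of the 9 libraries, with the median of all genes set to 0 (clone 7 as red circles, clone 1 as blue squares). The difference is highest for the genes that share most, at 0.61 to 0.70, and within each pair clone 7 lies above clone 1.

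Long stretches of chromosomes differed between the clones, and did so alike in every pair for some of them. In 516 windows of 25 consecutive tested genes, centred on the median of the pair, 191 kept 1 sign in all 3 pairs (100 higher and 91 lower in clone 7). Ranked by the smallest of the 3 medians, the 6 windows that led on the lower side lay on chromosomes 15 and 4 and the 6 on the higher side all lay on chromosome 16. The edges of the runs below were chosen after the values were seen, so they are described with no test.

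Chromosome 15 was lower in clone 7 along its whole length. Its 422 tested genes, from 22786657 to 101724387, had medians of -0.49, -0.53 and -0.41 in the 3 pairs, which are folds of 0.712, 0.695 and 0.750. All 16 windows were below 0 in each pair, and 236 of the 422 genes were below in all 3. Over all autosomes and X, 2757 of 13146 tested genes were below in all 3. The fit to the 2 day 0 pairs called 1044 genes higher (7.93%) and 1940 lower (14.7%) of all 13160. Its residual comes only from how the clone difference varied between the day 0 G1 and day 0 S pairs. On chromosome 15 that fit called 188 genes lower in clone 7 and 5 higher. PKM, pyruvate kinase, held 1320, 1600 and 539.9 CPM in clone 7, against 2677, 2840 and 525 CPM in clone 1. It was lower in clone 7 at day 0 (-0.92, adjusted p = 9.47e-05), and it differed less between the clones at day 28.

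On chromosome 4 the 50 genes between 4237836 and 22392552 had medians of -0.81, -0.93 and -0.86, or folds of 0.572, 0.525 and 0.551. Of these 50, 44, 49 and 49 were below 0 in the 3 pairs, 43 of them in all 3 (over all autosomes and X, 2757 of 13146). WDR1, an actin-disassembly factor, held 76.7, 95.7 and 73.3 CPM in clone 7, against 252, 255 and 91.7 CPM in clone 1. The syntaxin gene STX18 held 20.7, 25.3 and 38.3 CPM in clone 7, against 49.1, 45.6 and 86.6 CPM in clone 1. RNF212 lies on the same arm, nearer the end, outside these edges.

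Chromosome 16 was split. Its first 325 tested genes, up to 31039803, were higher in clone 7 with medians of 0.41, 0.43 and 0.57, or folds of 1.33, 1.34 and 1.48. Of these 325, 204 were above 0 in all 3 pairs, against 2836 of 13146 over all autosomes and X. RPS2, a ribosomal protein gene there, held 3321, 3866 and 804 CPM in clone 7, against 2216, 1993 and 458 CPM in clone 1. A second run of 175 genes, from 48334312 to 74305733, was lower at day 0 (-0.38 and -0.37) and near 0 at day 28 (-0.06). CYBA lies beyond both runs, near the end of the long arm.

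**Figure D3:**
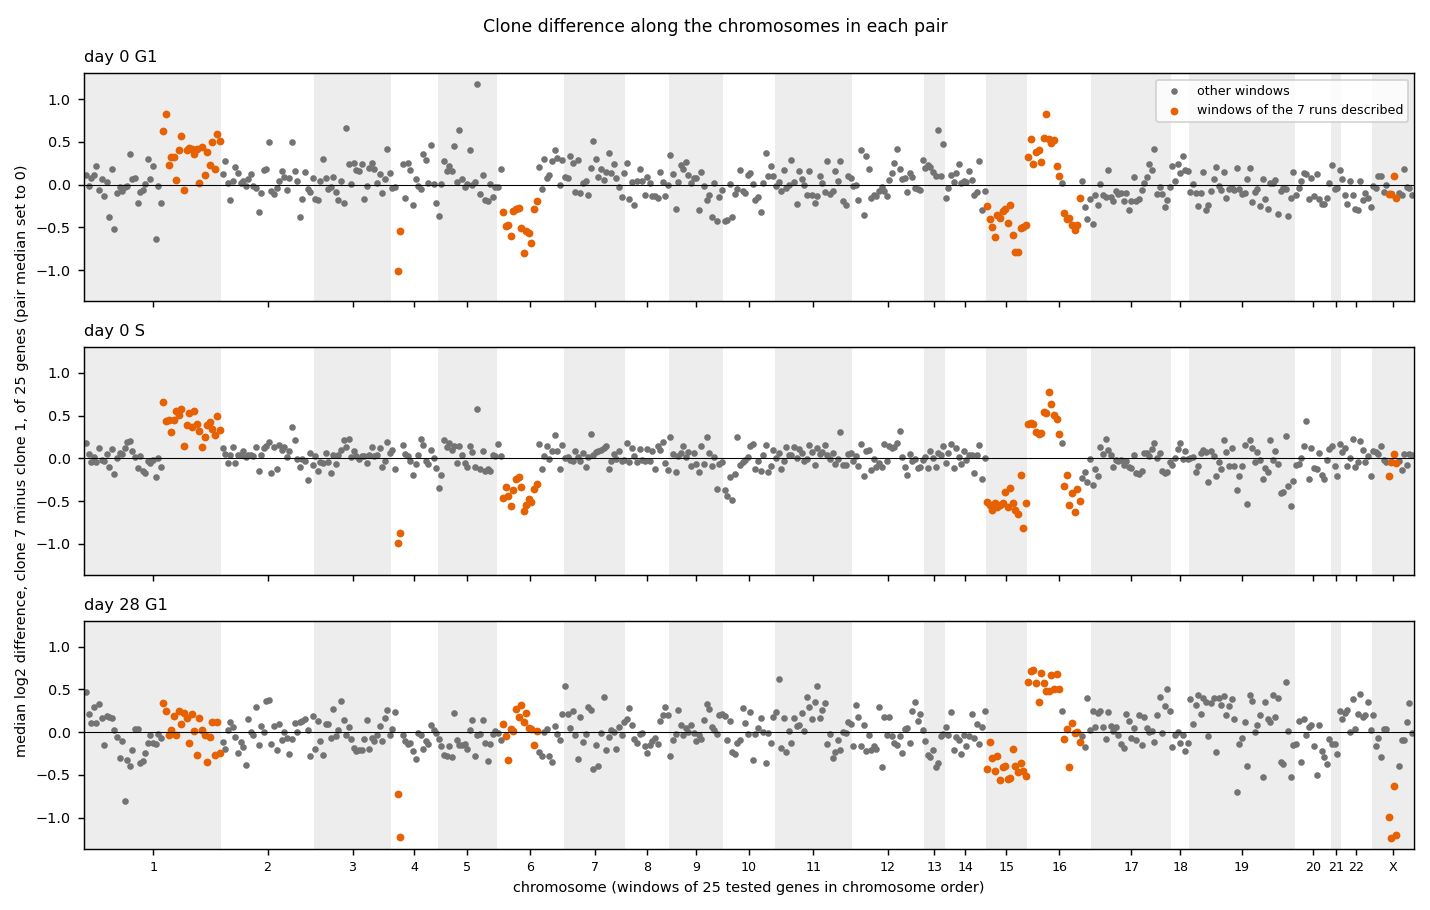
Median log2 difference of clone 7 minus clone 1 in windows of 25 consecutive tested genes, in chromosome order, with 1 panel per pair and the median of each pair set to 0; orange points belong to the 7 runs described. Chromosomes 15 and 4 (lower) and the first part of chromosome 16 (higher) stand apart in every panel, chromosomes 1 and 6 in the day 0 panels, and X at day 28.

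Other runs differed more between the clones on one day than on the other. On chromosome 1, 578 genes from 119712023 to 248918363 had medians of 0.39 and 0.39 at day 0 and 0.03 at day 28. On chromosome 6, 350 genes from 11714478 to 75715594 had medians of -0.49 and -0.45 at day 0 and 0.06 at day 28. On the X chromosome, 100 genes from 53533309 to 106873965 had -0.10 and -0.05 at day 0 and -1.04 at day 28, where 96 of the 100 were below 0. Within clone 7 the day 28 minus day 0 medians of these runs in G1 were -0.40 on chromosome 1, 0.52 on chromosome 6 and -0.91 on X. In clone 1 they were -0.09, 0.05 and 0.02 in G1, -0.04, 0.02 and 0.01 in S, and -0.13, 0.06 and -0.13 in G2. For clone 7, day 28 is 1 library. The second run of chromosome 16 went otherwise, with 0.02 in clone 7 and -0.26, 0.07 and -0.03 in clone 1 (G1, S and G2). On chromosome 15 the same medians were -0.06 in clone 7 and -0.12, 0.01 and -0.15 in clone 1.

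Single genes of these runs lay on either side of those medians. OGT, the O-GlcNAc transferase on the X chromosome, held 168, 153 and 57.6 CPM in clone 7, against 121, 152 and 384 CPM in clone 1. TUBB, a tubulin on chromosome 6, held 421, 795 and 246 CPM in clone 7, against 1014, 1576 and 241 CPM in clone 1. In G1 TUBB was lower at day 28 than at day 0 in both clones and OGT was higher at day 28 in clone 1, so neither gene followed the within-clone median of its run in both clones. NUCKS1, a nuclear phosphoprotein on chromosome 1, held 816, 570.3 and 463 CPM in clone 7, against 248, 369.5 and 332 CPM in clone 1. These were taken from the 8 genes of highest level in each run after the values were seen. Without genes that share 10% of their windows or more, the medians of all 7 runs moved little, for example to 0.36, 0.39 and 0.55 in the first run of chromosome 16.

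**Figure D4:**
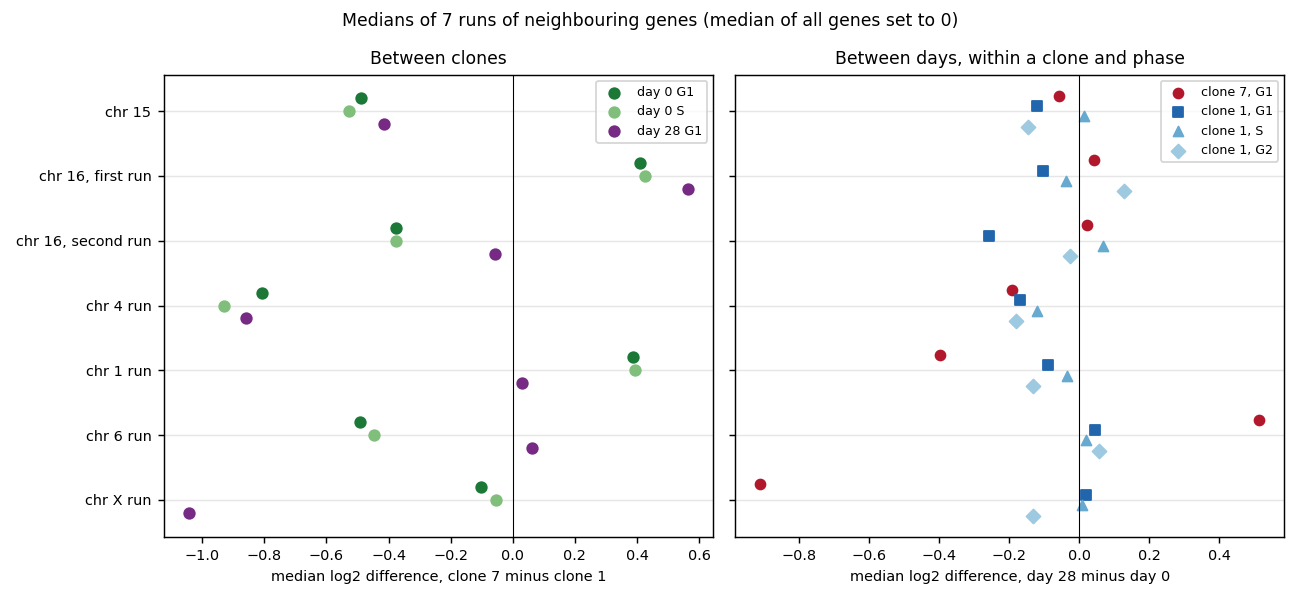
Medians of the 7 runs, with the median of all genes set to 0: left, clone 7 minus clone 1 in each pair; right, day 28 minus day 0 within a clone and phase (clone 7 as red circles, clone 1 in blue). Chromosome 15, chromosome 4 and the first run of chromosome 16 keep their place in the 3 pairs, while the runs on 1, 6 and X move between days in clone 7 and lie near 0 in clone 1.

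The difference between the clones at day 28 was not that of day 0. The 3 pairs share no library, and across 13160 genes, which are not independent, the differences of day 0 G1 and day 0 S correlated at r = 0.679, those of day 0 G1 and day 28 G1 at 0.124 and those of day 0 S and day 28 G1 at 0.300. The clone-by-day term asks whether the clone difference at day 28 G1 differed from its mean over the day 0 G1 and S pairs. The term therefore sets G1 at day 28 against a mean of G1 and S, and phase is not fully matched. It takes its residual only from how the clone difference varied between those day 0 pairs. It was positive in 803 of 13160 genes (6.1%) and negative in 413 (3.14%), by limma with an adjusted p under 0.05 and 1 residual degree of freedom; day 28 rests on 1 pair. That balance depends on the scaling. The share of positive calls was 66% on the total, 59.3% with median-of-ratios scaling, 51.2% with quantiles, 38.5% on a total without the mitochondrial genome and 47% on the deposited log2 values. The median of all genes moved from 0.12 to 0.05, 0.02, -0.12 and -0.08. Values below are on the total, and those of lists should be read against 0.12.

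Mitochondrially encoded mRNAs, which encode respiratory chain subunits, moved furthest as a list. Of 13 tested, 12 had a negative clone-by-day term, with a median of -2.10. Their medians between the clones were 0.80, 0.46 and -1.51 in the 3 pairs. MT-ND2, a complex I subunit, held 5515, 4876 and 1913 CPM in clone 7, against 2540, 2352 and 9476 CPM in clone 1. At day 28 clone 1 held more, and the unpaired clone 1 libraries of that day held 10140 and 7066 CPM. MT-ATP8, of the ATP synthase, held 2549, 2704 and 1369 CPM in clone 7, against 939, 981 and 3888 CPM in clone 1. Of 50 nuclear genes of the respiratory chain 7 were positive and 1 was negative (median 0.27), among them ATP5F1D (1.59) and NDUFA8 (1.47). For this list the counts were 5 and 3 (median 0.03) without the mitochondrial genome in the total, and 0 and 0 on the deposited log2 values.

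Genes of sterol synthesis and of the oxidative stress response moved the other way. Of 25 cholesterol synthesis genes 14 were positive and the rest did not pass (median 1.13). Between the clones their medians were -0.64, -0.29 and 0.67. MVD, a decarboxylase of the mevalonate steps, held 93.5, 152 and 119 CPM in clone 7, against 184, 205 and 49.1 CPM in clone 1. It was lower in clone 7 in both day 0 pairs and above clone 1 at day 28. Of 33 targets of NRF2, a factor that answers oxidative stress, 19 were positive and 1 was negative (median 1.05). The ketoreductase AKR1C3 held 199, 211 and 408 CPM in clone 7, against 753, 499.8 and 248 CPM in clone 1. AKR1C2, its neighbour and close relative on chromosome 10, held 361, 389 and 409 CPM in clone 7, against 1318, 1391 and 349.9 CPM in clone 1. The list of glutathione transferases and cytochromes P450 had 7 positive and 1 negative among 27 (median 0.49), with CYP4F3 at 2.51.

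Mitotic genes had negative clone-by-day terms. Of 50 genes of G2 and mitosis 21 had a negative term and the rest did not pass (median -1.26), and their medians between the clones were 0.74, -0.02 and -0.92. In the day 0 pairs 17 were higher in clone 7 and 3 were lower. NUF2, a kinetochore protein, held 62.4, 129.7 and 3.91 CPM in clone 7, against 15.1, 70.6 and 11.2 CPM in clone 1. It lies in the chromosome 1 run, which was itself higher in clone 7 at day 0. KIF20A, a kinesin of cytokinesis, held 42.2, 123 and 0.865 CPM in clone 7, against 11.4, 134 and 4.88 CPM in clone 1. The proliferation antigen MKI67 held 94.6, 185 and 2.24 CPM in clone 7, against 25.7, 171.5 and 8.36 CPM in clone 1, and cyclin B1, CCNB1, held 242, 521 and 24.8 CPM in clone 7, against 111, 456 and 36.8 CPM in clone 1. In the G1 pairs clone 7 was therefore the higher at day 0 and the lower at day 28. These genes differ between phases, and how sharply each library was sorted was not tested.

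Interferon-stimulated genes had negative terms as well. Of 33 tested, 11 had a negative term (median -0.90), with medians between the clones of -0.21, -0.11 and -1.04. IFI44L held 0.113, 0.0661 and 0.298 CPM in clone 7, from 1, 2 and 10 reads, against 0.0368, 0.190 and 14.03 CPM in clone 1, and the unpaired clone 1 libraries of day 28 held 3.82 (S) and 0 (G2) CPM. OASL, a relative of the 2′-5′ oligoadenylate synthetases, held 6.91, 7.47 and 7.79 CPM in clone 7, against 4.08, 3.32 and 31.6 CPM in clone 1. The unpaired clone 1 libraries of day 28 held less OASL, at 6.805 (S) and 16.6 (G2) CPM. Of 19 genes of MHC class I and peptide loading 8 had a positive term (median 0.76). In the chromosome 6 run lie 10 of the 19 with 3 of the 8, and of the 9 outside it 5 were positive. The immunoproteasome subunit PSMB10 held 44.3, 36.7 and 121 CPM in clone 7, against 89.4, 85.3 and 43.5 CPM in clone 1, and HLA-E held 55.0, 60.2 and 141 CPM in clone 7, against 100.3, 75.4 and 52.5 CPM in clone 1. PSMB10 lies in the second run of chromosome 16 and HLA-E in that of chromosome 6. B2M did not pass (0.78).

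Among epithelial adhesion genes, chaperones, glycolysis and lysosomal genes some terms were positive and most did not pass. Of 28 epithelial adhesion genes 7 were positive (median 0.63). CDH1, E-cadherin, held 30.9, 33.8 and 86.8 CPM in clone 7, against 72.4, 93.9 and 63.2 CPM in clone 1. It lies in the second run of chromosome 16, which was itself lower in clone 7 at day 0. CLDN1, claudin-1, held 10.5, 5.95 and 61.7 CPM in clone 7, against 8.49, 4.04 and 12.1 CPM in clone 1. Keratins were divided, with 7 of 17 positive and 4 negative (median 1.00). KRT16, a keratin of stressed epidermis, held 24.5, 17.3 and 1241 CPM in clone 7, against 79.5, 20.97 and 266 CPM in clone 1. KRT18, of simple epithelia, held 4797, 4371 and 4056 CPM in clone 7, against 7805, 7546 and 2467 CPM in clone 1. Of 23 heat shock chaperones 9 were positive (median 0.64), with HSP90AB1 at 1.79, which lies in the chromosome 6 run, and DNAJB1 at 1.32. Of 22 glycolysis genes 7 were positive (median 0.47), with PFKP at 2.42 and ALDOA at 1.18. Of 29 genes of lysosomes and autophagy 7 were positive (median 0.61), with the autophagy genes GABARAPL1 at 2.59 and SQSTM1 at 1.503. These counts depend on the scaling: without the mitochondrial genome in the total they were 7 (and 1 negative) for epithelial adhesion, 4 for chaperones, 5 for glycolysis and 5 (and 1 negative) for lysosomes and autophagy. On the deposited log2 values they were 2, 1, 2 and 1. There the other lists also had fewer calls, with 4 positive in cholesterol synthesis, 7 among NRF2 targets, 2 in MHC class I and 2 among the glutathione transferases and cytochromes P450, and 4 negative in G2 and mitosis, 3 among interferon-stimulated genes and 11 among mitochondrial mRNAs. The median of each of these 11 lists kept its sign under the 5 scalings.

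Cytosolic ribosomal protein genes had 10 positive and 5 negative terms among 76. Their median of 0.12 was that of all genes, and it turned to -0.004 with quantiles, -0.12 without the mitochondrial genome and -0.09 on the deposited values. In the day 0 pairs 25 of the 76 were higher in clone 7 and 2 were lower. Of the 76, 37 share at least 10% of their windows with another gene, and among the remaining ones 6 were higher and 1 was lower. RPS10 (1.27), which lies in the chromosome 6 run, and RPL13A (1.27) were the members with the largest positive terms. They share 25.5% and 28.8% of their windows with other genes, MT-ND2 shares 35.1% and AKR1C2 41.5%, and these 4 are uncertain for that reason.

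**Figure D5:**
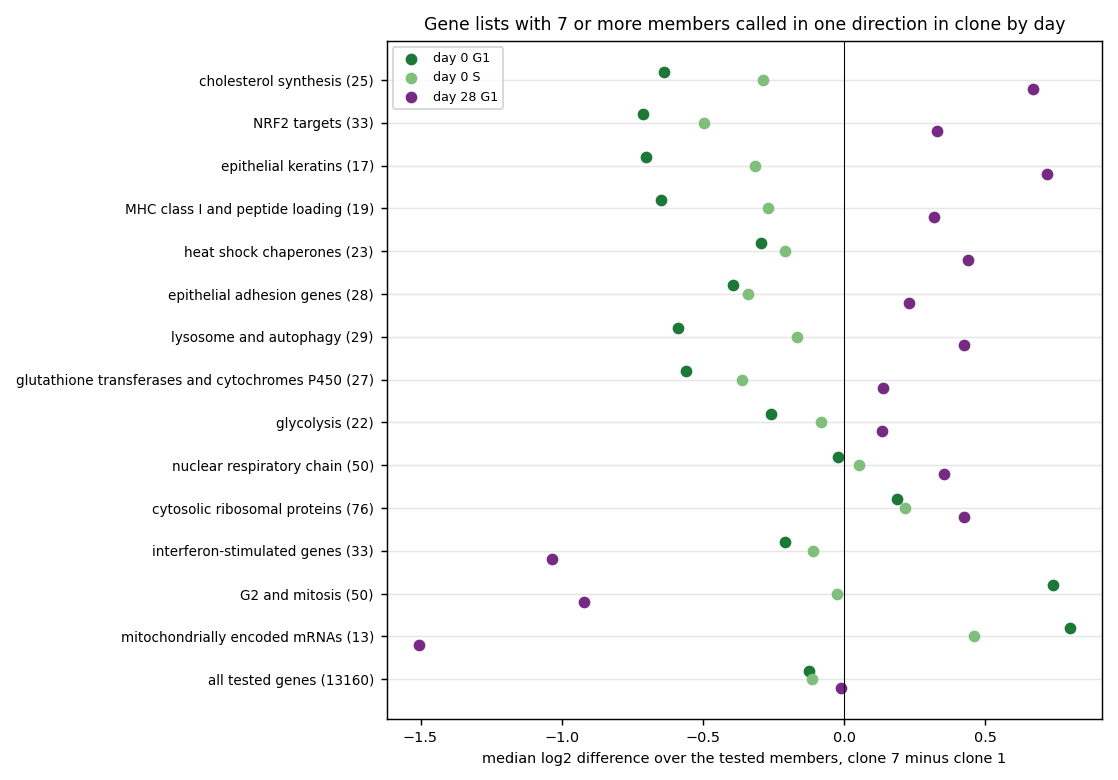
Median log2 difference of clone 7 minus clone 1 over the tested members (number in brackets) of the 14 lists with 7 or more members called in 1 direction in clone by day, and over all tested genes, with 1 point per pair. Cholesterol synthesis and NRF2 targets lie left of 0 in both day 0 pairs and right of it at day 28, and mitochondrially encoded mRNAs lie right of 0 at day 0 and left of it at day 28.

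Among the genes with the largest positive clone-by-day terms, SI was near 0 in clone 1 on both days. SI, the intestinal sucrase-isomaltase, held 8.61, 4.76 and 280.4 CPM in clone 7, against 0.0276, 0 and 0.230 CPM in clone 1, which are 3, 0 and 7 reads (4.84, adjusted p = 0.000699). CYP1B1, a cytochrome P450 of hydrocarbon and oestrogen metabolism, held 1.70, 0.925 and 12.98 CPM in clone 7, against 7.93, 7.45 and 3.15 CPM in clone 1 (4.09, adjusted p = 0.00138). HAP1, a huntingtin-associated transport protein, held 0.113, 0.793 and 33.6 CPM in clone 7, against 1.77, 0.190 and 2.88 CPM in clone 1 (3.82, adjusted p = 0.022). SLC4A5, a bicarbonate transporter, held 0.340, 0.132 and 11.6 CPM in clone 7, against 1.997, 14.4 and 8.03 CPM in clone 1 (3.57, adjusted p = 0.0299).

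The negative side was led by CCDC163, at 29.8, 0.727 and 0.358 CPM in clone 7 and 0.589, 0.910 and 17.2 CPM in clone 1 (-6.67, adjusted p = 0.011). At day 0 its value in clone 7 rested on the G1 library alone. MEIOB, a meiotic recombination factor, held 3.85, 1.36 and 0.328 CPM in clone 7, against 2.13, 0.614 and 29.01 CPM in clone 1, and the unpaired clone 1 libraries of day 28 held only 0.0734 (S) and 1.76 (G2) CPM. VIT, the matrix protein vitrin, held 0.340, 0.0331 and 0.477 CPM in clone 7, against 0.212, 0.719 and 31.8 CPM in clone 1, with 19.6 and 17.3 CPM in the unpaired clone 1 libraries of day 28. AGR2, a disulfide isomerase of mucin folding, held 132.5, 113 and 0.656 CPM in clone 7, against 38.6, 21.3 and 4.98 CPM in clone 1 (-4.32, adjusted p = 0.000161). The glypican GPC6 held 12.0, 6.11 and 6.80 CPM in clone 7, against 1.99, 2.84 and 39.4 CPM in clone 1. IL1RAPL2, a receptor of the interleukin-1 family that lies in the X run, held 34.3, 11.7 and 7.52 CPM in clone 7, against 3.17, 2.96 and 22.9 CPM in clone 1.

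EGFR, the drug's target, did not pass in either comparison. It held 134, 58.4 and 385 CPM in clone 7, against 60.8, 57.0 and 449 CPM in clone 1 (0.32 over the pairs, adjusted p = 0.565; clone by day -0.81, adjusted p = 0.18). Neither term passed for the receptors ERBB2, ERBB3, MET and AXL or for MYC, whose differences over the pairs were 0.02, -0.69, -0.39, -0.16 and -0.12, nor for VIM and NKX2-1 (0.64 and -0.46). In the day 0 pairs alone ERBB3 was lower in clone 7 (-0.93, adjusted p = 0.0021) and VIM was higher (0.60, adjusted p = 0.0272). Of 19 targets of the ERK pathway, which lies downstream of EGFR, 6 had a positive clone-by-day term and 2 a negative one (median 0.67), and at day 0, 6 were higher in clone 7 and 1 was lower. DUSP6, a phosphatase induced by ERK signalling, held 30.1, 30.7 and 0.268 CPM in clone 7, against 17.2, 10.4 and 1.18 CPM in clone 1, and its clone-by-day term was -2.28 (adjusted p = 0.0192). CCND1, cyclin D1, held 21.5, 28.4 and 31.6 CPM in clone 7, against 51.7, 51.5 and 19.2 CPM in clone 1 (1.75, adjusted p = 0.0104). CDKN2A, an inhibitor of CDK4 and CDK6, had a term of 1.07 (adjusted p = 0.0175), while CDKN1A (1.49, adjusted p = 0.114) and CCNE2 (-0.21, adjusted p = 0.839) did not pass. TGM2, a transglutaminase, held 166, 319 and 18.0 CPM in clone 7, against 354, 356 and 2.98 CPM in clone 1 (3.03). GAB2, a docking protein of receptor kinases, held 5.89, 0.992 and 67.1 CPM in clone 7, against 1.48, 0.677 and 155 CPM in clone 1 (-2.21).

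CDT1 and GMNN, the genes from which the reporter fragments come, were lower in clone 7 at day 0. GMNN lies in the chromosome 6 run, which was itself lower in clone 7 at day 0 (medians -0.49 and -0.45). CDT1 lies outside the runs described. CDT1 held 62.3, 52.0 and 83.6 CPM in clone 7, against 535, 145 and 201 CPM in clone 1, and GMNN held 68.7, 65.2 and 74.2 CPM in clone 7, against 445, 119.6 and 107 CPM in clone 1. Clone 7 was the lower in every pair, most of all in day 0 G1. The day 0 differences were -2.28 (adjusted p = 1.63e-05) and -1.78 (adjusted p = 0.000294), while over the 3 pairs neither passed (-1.94, adjusted p = 0.101, and -1.36, adjusted p = 0.168). Reads from the reporter can add to both genes, and its part in these values was not tested.

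With the day 28 pair left out, the day 0 fit called 1044 and 1940 genes in place of 11 and 6. Other lists with day 0 calls included the S100 proteins, with 8 of 11 higher (median 1.00), and these 8 are among the 10 that lie in the chromosome 1 run, which was itself higher at day 0. The integrins and laminins had 10 of 22 higher and 2 lower (median 0.48), with 4 of the 10 in that run. Epithelial adhesion genes had 13 of 28 lower and 2 higher at day 0, and MHC class I genes 9 of 19 lower and 1 higher. Of the 13, 2 lie on chromosome 15 and 3 in the second run of chromosome 16. Of the 9, 3 lie in the chromosome 6 run, 2 on chromosome 15 and 1 in the second run of chromosome 16. These runs were themselves lower in clone 7 at day 0.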

How the data were processed

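The authors deposited 1 table of log2 values, with 80037 coding transcripts and the 9 libraries. HISAT2 2.1.0, GRCh38 and, with no version, DESeq2 are named in the submitters' processing notes. The read counter and the scaling are not given in the sources used here. Per the labels' protocols, strand-specific libraries were amplified for 10 to 18 PCR cycles and read as 75-base single ends, with no molecular identifiers named. Dividing the linear form of the deposited values by 1 constant for each library gave whole reads (100% within 0.05 of whole), and 0.9 reads stood where there were none. The spans counted include introns.

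Here, entries for no read were set to 0. Each gene took the row of highest mean over the 9 columns (20435 genes). CPM was taken over the total of those rows, and genes with a mean CPM of at least 1 over the 6 libraries were tested (13160). Tests used limma 3.58.1 in R 4.3.3 on log2(CPM + 0.5), with trend, 2-sided, Benjamini-Hochberg adjusted p under 0.05, and the pair as a block. The pairing comes from the day and phase in the labels. No count test was run on these log2 values. The fits were checked on simulated data. Python 3.11.15 made the figures.

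Genes were named by rule: the 12 largest differences each way over the pairs and the 6 largest each way in clone by day (mean of at least 5 CPM, a symbol, and over the pairs 1 direction), up to 4 called members of a list, the 2 largest of each list with 7 or more called 1 way in clone by day (a limit set after seeing the values), and 25 fixed genes. A few genes that these rules name are not reported here. The members and the 54 lists were chosen with earlier results of these data known. Shared windows were found for 19467 of 20435 genes in steps of 5 bases along the longest coding transcript of GENCODE v29. Alternatives changed the scaling, pseudocount, filter, depth, weights, span, model and pairs. Chromosome medians removed and genes sharing windows left out were added after seeing the data.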

Additional observations from a re-analysis of the deposited data

Results flagged for a closer look

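Clone 7 minus clone 1 differed between day 28 G1 and day 0 in these named genes, by the clone-by-day term of limma across all genes (adjusted p under 0.05). Day 28 rests on 1 pair, and the direction of each was the same against each day 0 pair taken alone. The term is given on the log2 scale, and a positive value means that clone 7 stood higher relative to clone 1 at day 28 than at day 0.

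Positive terms of at least 3 were found for SI (4.84), CYP1B1 (4.09), HAP1 (3.82), SLC4A5 (3.57), KRT16 (3.19) and TGM2 (3.03). Negative terms of that size were found for CCDC163 (-6.67), MEIOB (-5.89), VIT (-4.57), AGR2 (-4.32), IFI44L (-4.14), GPC6 (-4.11), IL1RAPL2 (-4.08) and MT-ND2 (-3.39).

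Among metabolic and stress genes the terms were 2.42 for PFKP, 1.18 for ALDOA, 1.96 for MVD, 2.30 for AKR1C3, 2.08 for AKR1C2, 2.51 for CYP4F3, 1.59 for ATP5F1D, 1.47 for NDUFA8 and -2.96 for MT-ATP8. Chaperone and autophagy genes stood at 1.79 (HSP90AB1), 1.32 (DNAJB1), 2.59 (GABARAPL1) and 1.503 (SQSTM1). The ribosomal protein genes RPS10 and RPL13A stood at 1.27 and 1.27.

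Named epithelial genes stood at 1.90 (CLDN1), 1.79 (CDH1), 2.23 (KRT80) and 1.46 (KRT18). Of 17 keratins 7 had a positive term and 4 a negative one, and the negative ones are not among the genes named. Antigen presentation genes stood at 2.57 (PSMB10) and 2.01 (HLA-E), and the interferon-stimulated OASL at -2.83.

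Cell cycle and signalling genes stood at -2.85 (NUF2), -2.84 (KIF20A), -2.68 (MKI67), -1.22 (CCNB1), 1.75 (CCND1), 1.07 (CDKN2A), -2.28 (DUSP6) and -2.21 (GAB2).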

How the results depend on the processing

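Over the 3 pairs, 16 of the 16 named and called genes kept 1 direction under every alternative, and so did 44 of the 44 genes named in clone by day. The 16 were named only if they had 1 direction in the 3 pairs, so leaving out a pair could not turn them. For clone by day the day 28 pair cannot be left out. The calls moved more. Over the pairs the counts of higher and lower genes, 11 and 6 as reported, were 7 and 2 with quantile scaling, 11 and 3 on the deposited log2 values, 22 and 12 with voom, 42 and 37 with all 9 libraries, 5 and 5 without genes sharing windows, and 1 and 0 with no filter (2568 genes at an unadjusted p under 0.05 by limma). Without the replicate block they were 0 and 0 (346 at an unadjusted p under 0.05 by limma), so the calls rest on the pairing by day and phase. Leaving out 1 pair gave 27 to 1044 higher and 26 to 1940 lower: 58 and 54 without day 0 G1, 27 and 26 without day 0 S, and 1044 and 1940 without day 28.

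In clone by day the counts of 803 positive and 413 negative were 503 and 803 without the mitochondrial genome, 94 and 106 on the deposited values, 0 and 0 with no filter (3638 at an unadjusted p under 0.05 by limma), 441 and 194 with reads thinned to the total of the shallowest library, 1400 and 807 with voom, and 356 and 152 with chromosome medians removed. The cause was not tested. No test without a day 0 pair was run for this term, since no residual degree of freedom is left.

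Over the pairs 13 genes that did not pass turned sign. AGR2 stood at -0.24 without the day 0 S pair. MKI67 stood at -0.19 with all 9 libraries and -0.79 without the day 0 G1 pair, which also gave -0.094 for EGFR, 0.066 for AXL, -0.18 for CCNB1, -0.43 for GAB2 and 0.047 for B2M. ERBB2 stood at -0.0032 without the mitochondrial genome and -0.25 without day 28. DUSP6 stood at -0.17 and KRT18 at 0.0076 without day 0 S. CDKN2A stood at 0.066 (median-of-ratios), 0.095 (deposited values), 0.16 (widest span), 0.037 (9 libraries), 0.18 and 0.12 (without day 0 G1 or S). MYC stood at 0.004 on the deposited values. Under voom TGM2 stood at -0.058 and GAB2 at -0.59, TGM2 without day 28 at -0.62, and B2M with chromosome medians removed at 0.18.

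The shallowest library, clone 7 day 0 G1, held 8.83 M reads, and differences of low genes there are imprecise. Depth differs between the members of each pair.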

Other observations

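The responses of the 2 clones to 28 days of osimertinib in G1 are given as values of 1 library per clone and day, with no test. They were not centred, and their medians over all tested genes were 0.46 in clone 7 and 0.29 in clone 1 on the log2 scale. How far the counts higher and lower depend on the scaling was not tested. At least 2-fold higher at day 28 than at day 0 were 4399 of 13160 genes in clone 7 (33.4%) and 4247 in clone 1 (32.3%), and 3145 genes were among both (71.5% of the clone 7 list and 74.1% of the clone 1 list). At least 2-fold lower were 1475 genes in clone 7 (11.2%) and 2112 in clone 1 (16%), with 929 among both (63% and 44%). Opposite changes of that size were seen in 28 genes that were higher in clone 7 and lower in clone 1, and in 20 the other way. Across genes, which are not independent, the responses of clone 7 and clone 1 correlated at r = 0.771, and no library enters both.

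Single genes show both kinds. C1S moved by 3.16 in clone 7 and 3.19 in clone 1 on the log2 scale, and ADIRF by 2.36 and 2.14. CYP1B1 moved by 2.62 in clone 7 and -1.21 in clone 1, GPC6 by -0.78 and 4.00, and IL1RAPL2 by -2.12 and 2.67.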
